A study of Rattus norvegicus with 12 samples.

Results

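The markers described here are 10 genes of Kupffer cells, the resident macrophages of the liver sinusoids, and of macrophages and leukocytes in general. They were found by gene symbol among 13215 named genes on the array. A probe set (the group of probes summarised to 1 value) had to carry 1 gene symbol only. Such a probe set was found for 9 of the 10 listed genes, 1 for each. No probe set was annotated with Cd163, the haemoglobin scavenger receptor, alone, so no value is given for it. The genes were measured in livers of 12 Sprague Dawley rats, 1 whole-transcript array per rat. Naproxen was mixed into the feed of 4 rats at 400 mg/kg, NO-naproxen into that of 4 others at 550 mg/kg, and 4 received control diet, each for 7 days. Naproxen is a nonsteroidal anti-inflammatory drug that inhibits the cyclooxygenases, and NO-naproxen is a derivative of it that releases nitric oxide. The drug doses per kg of diet differ, and no source used here gives the rats' age or sex.

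Kupffer cells line the sinusoids and take up bacteria, debris and complement-coated particles from portal blood. They depend on signals through the receptor of colony stimulating factor, Csf1r, and carry a set of uptake receptors that are scarce or absent on most blood leukocytes. Among the measured genes, Vsig4 (Entrez Gene 312102) is a complement receptor of tissue macrophages and Clec4f (Entrez Gene 114598) a lectin of Kupffer cells. Marco (Entrez Gene 367391) is a scavenger receptor, and Adgre1 (Entrez Gene 316137) encodes an adhesion receptor used in mice as a macrophage marker. These 4 are called resident markers below. The 5 general markers are Csf1r (Entrez Gene 307403), the lysosomal glycoprotein gene Cd68 (Entrez Gene 287435), the calcium-binding Aif1 (Entrez Gene 29427), the lysosomal protease Ctss (Entrez Gene 50654) and Ptprc (Entrez Gene 24699). Ptprc encodes the tyrosine phosphatase found on all nucleated blood cells. In whole liver, more cells of a type and more RNA per cell cannot be told apart.

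The tissue matched its label: albumin, Alb, gave intensities of 12250 to 13774 in naproxen, 11799 to 14795 in NO-naproxen and 12010 to 13105 in control livers. All 9 markers lay above the range of olfactory receptor probe sets, which served as background, with its upper bound (the 95th percentile) at 6.44 on the log2 scale. Median intensities per array ran between 89.8 and 118. The arrays differed in the width of their signal distribution, and this touches several results below. The interquartile range of the log2 values was 2.34 ± 0.16 in naproxen, 2.36 ± 0.23 in NO-naproxen and 2.10 ± 0.19 in control arrays (SD, n = 4 each). The narrowest 2 arrays were control replicates 4 and 3, the narrower at 1.94, and the widest was NO-naproxen replicate 2 (2.62). All fold changes below are on the log2(intensity + 16) scale, which understates the change of dim probe sets.

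The first question was whether resident markers differed with either drug. Vsig4 gave intensities of 667, 628, 486 and 662 in the naproxen livers (replicates 1 to 4), of 513, 804, 590 and 597 in the NO-naproxen livers and of 537, 485, 434 and 361 in the controls. For each drug 3 of the 4 arrays lay above every control array. The log2 fold change was 0.42 ± 0.19 (SE) with naproxen (95% interval 0.02 to 0.81) and 0.44 ± 0.19 with NO-naproxen (0.05 to 0.84). The unadjusted limma p was 0.0386 with naproxen and 0.0292 with NO-naproxen. After Benjamini-Hochberg adjustment over all 19418 probe sets neither passed (adjusted p = 0.388 and 0.468). With the arrays' interquartile range as a covariate the Vsig4 values were 0.30 with naproxen and 0.32 with NO-naproxen, and without the 2 narrowest arrays 0.24 and 0.27. The unadjusted p was then over 0.05 for both drugs, as it also was after quantile normalization (0.31 and 0.25). Clec4f gave 1370, 1353, 1121 and 1240 with naproxen, 1060, 1598, 1684 and 1187 with NO-naproxen, and 1449, 1181, 1156 and 1060 in controls. The 3 groups of Clec4f arrays overlapped throughout. Its log2 fold change was 0.07 with naproxen (-0.31 to 0.46) and 0.17 with NO-naproxen (-0.21 to 0.56).

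Marco was the most variable resident marker. It gave 1072, 1141, 435 and 736 with naproxen, 528, 926, 995 and 733 with NO-naproxen, and 873, 764, 497 and 491 in controls. High and low arrays occurred in every diet, and the log2 fold changes of 0.31 (-0.31 to 0.94) with naproxen and 0.28 (-0.35 to 0.90) with NO-naproxen were about as large as their standard error of 0.29. Adgre1 gave 394, 283, 268 and 376 with naproxen, 419, 542, 354 and 315 with NO-naproxen, and 347, 363, 300 and 239 in controls. Its log2 fold change was 0.08 (-0.36 to 0.51) with naproxen and 0.36 (-0.08 to 0.79) with NO-naproxen. In both drug groups the Adgre1 arrays overlapped those of the controls.

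**Figure D1:**
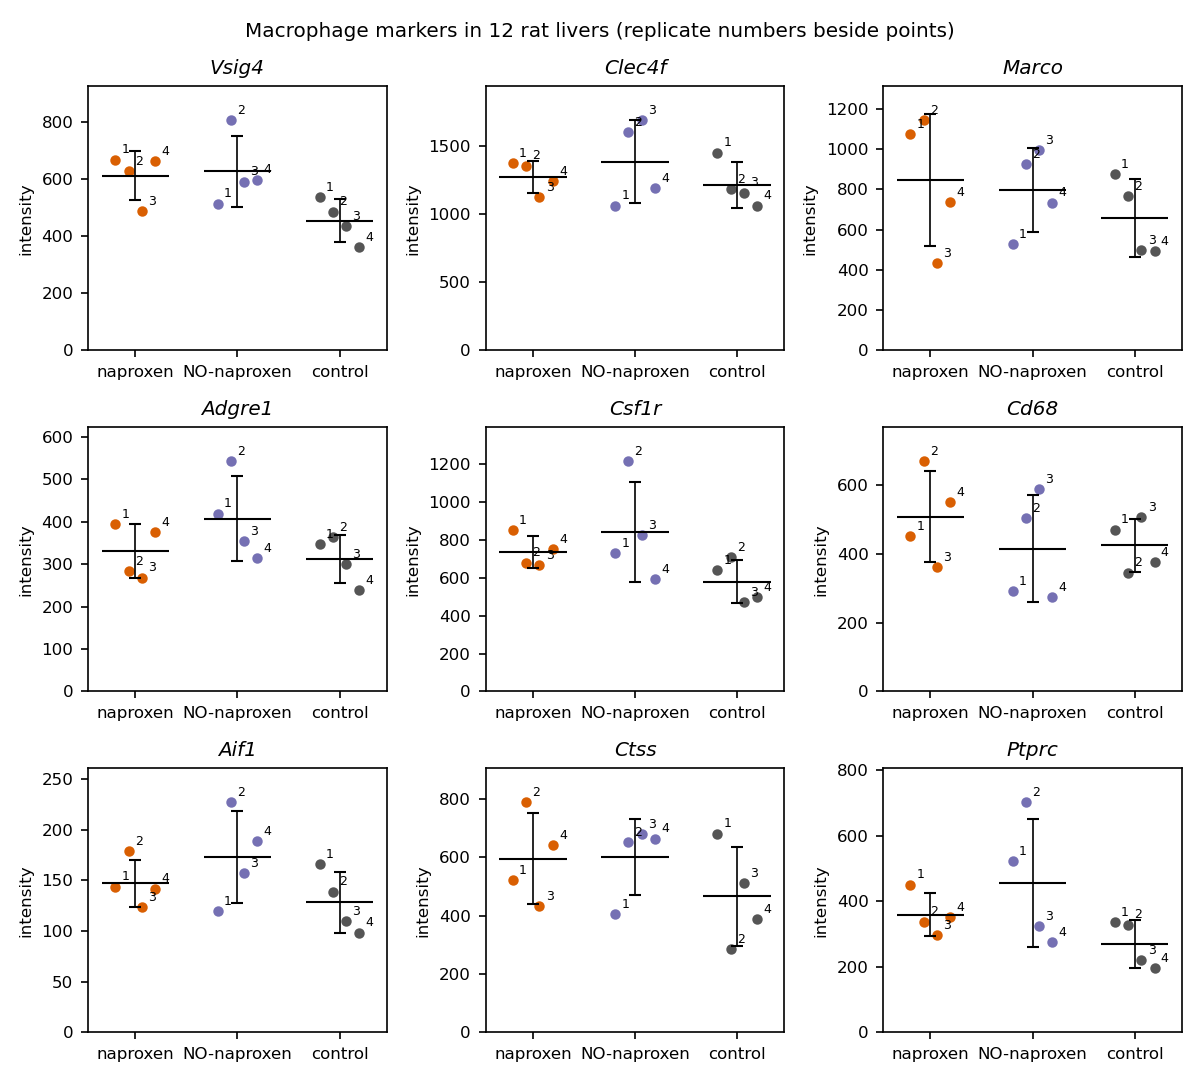
Intensity (linear scale from 0) of each measured marker in the 12 livers by diet, with 1 point per rat and its replicate number; bars are the mean ± SD of 4 rats. Every panel shows overlapping diets, and NO-naproxen replicate 2 is the top point for 5 of the 9 genes.

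Among the general markers, Ptprc had the largest measured difference. It gave 451, 338, 297 and 353 with naproxen, 523, 702, 325 and 276 with NO-naproxen, and 337, 329, 220 and 196 in controls. Replicates 1 and 2 of the NO-naproxen group were high, while its replicates 3 and 4 lay within the control range. The log2 fold change was 0.67 ± 0.27 (SE) with NO-naproxen (0.10 to 1.23, unadjusted p = 0.0237, adjusted p = 0.468) and 0.41 ± 0.27 with naproxen (-0.15 to 0.98, adjusted p = 0.491). Without NO-naproxen replicate 2, the array of widest spread, the NO-naproxen value was 0.43 (unadjusted p = 0.104). With the arrays' interquartile range as a covariate it was 0.23 with NO-naproxen and 0.01 with naproxen. Without the 2 narrowest arrays, both controls, the values were 0.35 and 0.09.

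Csf1r, the growth factor receptor on which macrophages depend, gave 850, 680, 666 and 750 with naproxen, 731, 1213, 825 and 594 with NO-naproxen, and 640, 709, 470 and 499 in controls. Control replicates 3 and 4 lay below every drug array, and replicates 1 and 2 among them. Its log2 fold change was 0.50 ± 0.21 with NO-naproxen (0.05 to 0.94, unadjusted p = 0.0326, adjusted p = 0.468) and 0.35 ± 0.21 with naproxen (-0.10 to 0.80, adjusted p = 0.462). Csf1r also moved with the array spread: with it as a covariate the values were 0.24 with NO-naproxen and 0.12 with naproxen. Without NO-naproxen replicate 2 the NO-naproxen value was 0.31, and in both settings its unadjusted p was over 0.05. Aif1 gave 144, 179, 124 and 142 with naproxen, 120, 227, 157 and 189 with NO-naproxen, and 166, 139, 110 and 98.5 in controls. The groups overlapped, and its log2 fold changes were 0.19 (-0.24 to 0.63) with naproxen and 0.38 (-0.05 to 0.82) with NO-naproxen.

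Ctss and Cd68 had their highest value in naproxen replicate 2, as did Marco. Ctss gave 521, 788, 432 and 643 with naproxen, 405, 651, 679 and 664 with NO-naproxen, and 681, 286, 511 and 388 in controls. Control replicate 1 lay above every NO-naproxen array. The log2 fold changes of 0.38 (-0.17 to 0.93) with naproxen and 0.39 (-0.16 to 0.94) with NO-naproxen had wide intervals. With the array spread as a covariate Ctss measured 0.62 with naproxen and 0.66 with NO-naproxen (unadjusted p = 0.0324 and 0.0277), larger than without it, the opposite of Ptprc and Csf1r. Cd68 gave 452, 668, 361 and 551 with naproxen, 292, 504, 588 and 274 with NO-naproxen, and 470, 345, 506 and 375 in controls. Both the lowest value and the second highest belonged to NO-naproxen livers. Its log2 fold change was 0.23 (-0.30 to 0.77) with naproxen and -0.09 (-0.62 to 0.45) with NO-naproxen.

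Counted together, 9 of 9 log2 fold changes were above 0 with naproxen and 8 of 9 with NO-naproxen. Over all probe sets the shares above 0 were 45.9% and 50.1%, and over the 12054 above the olfactory receptor range 56.7% and 61.3%. The median over the markers was 0.31 with naproxen and 0.38 with NO-naproxen, where the median over all probe sets was -0.03 and 0.00. Without the 2 narrowest arrays, both controls, 4 of the 9 naproxen values were below 0 (Clec4f, Marco, Adgre1 and Aif1) and the medians were 0.09 with naproxen and 0.16 with NO-naproxen. With the array spread as a covariate the medians were 0.12 and 0.23. Both comparisons use the same 4 control arrays. In limma 0 of 9 markers passed an adjusted p under 0.05 in either comparison, and so did 0% of all probe sets in each. At an unadjusted p under 0.05, 1 of 9 was higher with naproxen (Vsig4) and 3 of 9 with NO-naproxen (Vsig4, Csf1r and Ptprc), beside 3.16% and 5.49% of all probe sets in that direction, and none was lower (9.5% and 4.86%). In either direction the shares were 12.7% and 10.4%. The criterion in the study's design adds a change of at least 1.5-fold to that p. It was met by 0 of 9 with naproxen (5.85% of probe sets, 0.875% higher and 4.97% lower) and by 1 of 9, Ptprc at 1.59-fold, with NO-naproxen (3.8%, with 1.78% higher and 2.02% lower). No marker had separate groups of arrays in either comparison (4.5% and 3.35% of probe sets did; lower only, 2.4% and 1.35%).

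**Figure D2:**
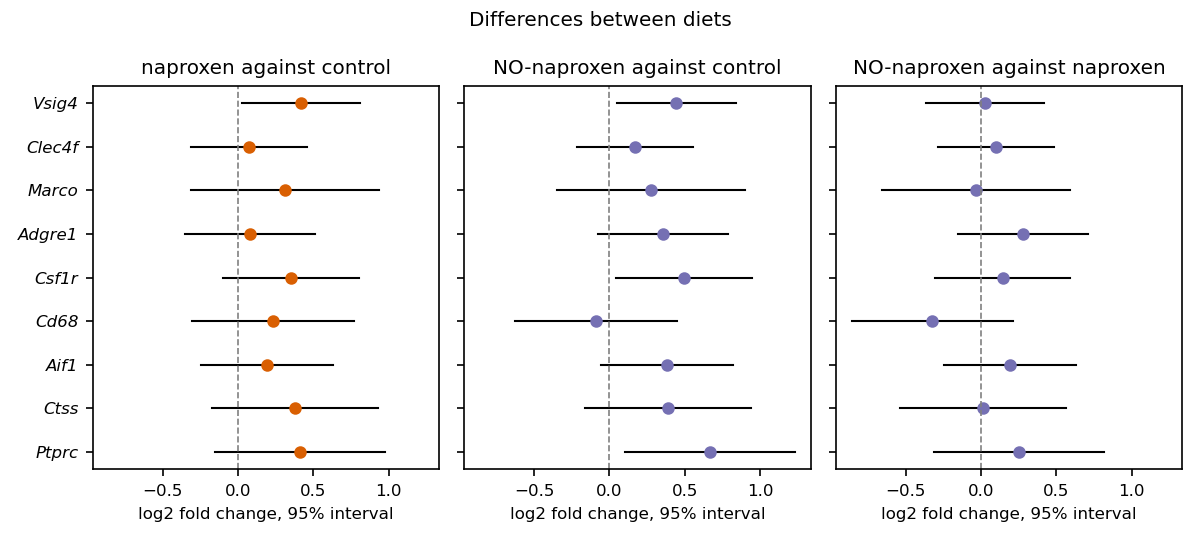
Log2 fold change (points) and 95% interval (lines) of each marker from limma in the 3 comparisons, 4 rats per diet; the dashed line is 0. Intervals that leave out 0 are those of Vsig4 with naproxen and of Vsig4, Csf1r and Ptprc with NO-naproxen, all before adjustment.

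The 2 drugs were also set against each other, with the reservation that their doses in the diet differed (550 mg/kg of NO-naproxen and 400 mg/kg of naproxen). No marker passed, adjusted (0% of probe sets), unadjusted (1.92%, with 1.28% higher) or by the criterion (0.572%), and the arrays of the 2 diets overlapped for each (1.17% of probe sets did not). Of 9 differences 7 were above 0, beside 64.1% of all probe sets and 66.3% of those above the olfactory receptor range. The difference of NO-naproxen from naproxen was largest in size for Cd68, at -0.32 log2 units with a 95% interval of -0.86 to 0.22. For Adgre1 it was 0.28 (-0.15 to 0.71), and for Ptprc 0.25 (-0.31 to 0.82). For Vsig4 it was 0.03 with an interval of -0.37 to 0.42. The intervals of all 9 markers held 0, which does not show that the drugs act alike.

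Array by array, the markers did not simply follow diet. NO-naproxen replicate 2 lay above the 12-array median for 9 of 9 markers and was the highest array for 5, namely Vsig4, Adgre1, Csf1r, Aif1 and Ptprc. Naproxen replicate 2 was the highest for Marco, Cd68 and Ctss. At the other end, control replicate 4 and naproxen replicate 3 lay above the median for 0 of 9 markers, and control replicate 3 for 1. Control replicate 4 was the lowest array for Vsig4, Adgre1, Aif1 and Ptprc. Control replicate 1, by contrast, lay above the median for 6 of 9 markers, and NO-naproxen replicates 1 and 4 for 3 each.

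Whether resident and general markers moved together was asked over the 12 arrays for the 20 pairs of a resident with a general marker. Pearson's r was above 0 in 20 of 20 pairs, from 0.07 to 0.91 with a median of 0.64. After Benjamini-Hochberg adjustment over the 20 pairs, 11 passed the permutation test by r and 8 of these also by Spearman's rho. By r, 2 pairs passed after quantile normalization and 4 without either NO-naproxen replicate 2 or control replicate 4. The closest pair was Adgre1 with Ptprc (r = 0.91, rho = 0.84, permutation p = 9e-05 and 0.001, adjusted p = 0.0018 and 0.02). The resident markers Clec4f and Marco each had r = 0.45 with Ptprc (rho = 0.37 and 0.56), and neither pair passed. Their permutation p of r was 0.139 and 0.144 (adjusted 0.17 for each). Vsig4 went with Aif1 (r = 0.85, rho = 0.79, permutation p = 0.00061 and 0.00345, adjusted 0.0054 and 0.02) and with Csf1r (r = 0.83, rho = 0.73, permutation p = 0.00107 and 0.00867, adjusted 0.0054 and 0.0271). Vsig4 with Ptprc, a resident marker against the pan-leukocyte one, gave r = 0.77 and rho = 0.73 (permutation p = 0.00394 and 0.00949, adjusted 0.0158 and 0.0271). Without the 2 arrays farthest from the Vsig4 median this r was 0.42, so it rests in part on those arrays, and over the 20 pairs r then ran from -0.25 to 0.75. Adgre1 stood apart from the lysosomal genes, with r = 0.07 for Cd68 and 0.14 for Ctss (rho = -0.04 and 0.00, permutation p of r = 0.83 and 0.663, of rho = 0.903 and 1).

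Adgre1, Csf1r and Ptprc had r of 0.84 to 0.91 with one another, while Ptprc had r of 0.08 with Cd68 and 0.18 with Ctss. With the other resident markers Adgre1 had r of 0.73 (Vsig4), 0.50 (Clec4f) and 0.43 (Marco). Clec4f and Marco had r = 0.80, and Cd68 had r = 0.65 with Clec4f and 0.61 with Ctss. Vsig4 and Aif1 lay between, with Vsig4 at 0.77 with Ptprc and 0.63 with Ctss. With the diet means taken out, the median over the 20 pairs was 0.60 and the range -0.03 to 0.91, and 7 pairs passed. Ctss then had r of -0.03 with Csf1r and -0.10 with Ptprc. With the diet means and the array spread both taken out, the median was 0.69 and the range 0.29 to 0.85, so the low pairs were closer: Cd68 with Ptprc then had r = 0.71, Cd68 with Csf1r 0.81 and Adgre1 with Cd68 0.68. These last values are descriptions over 12 arrays, which share their diets.

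**Figure D3:**
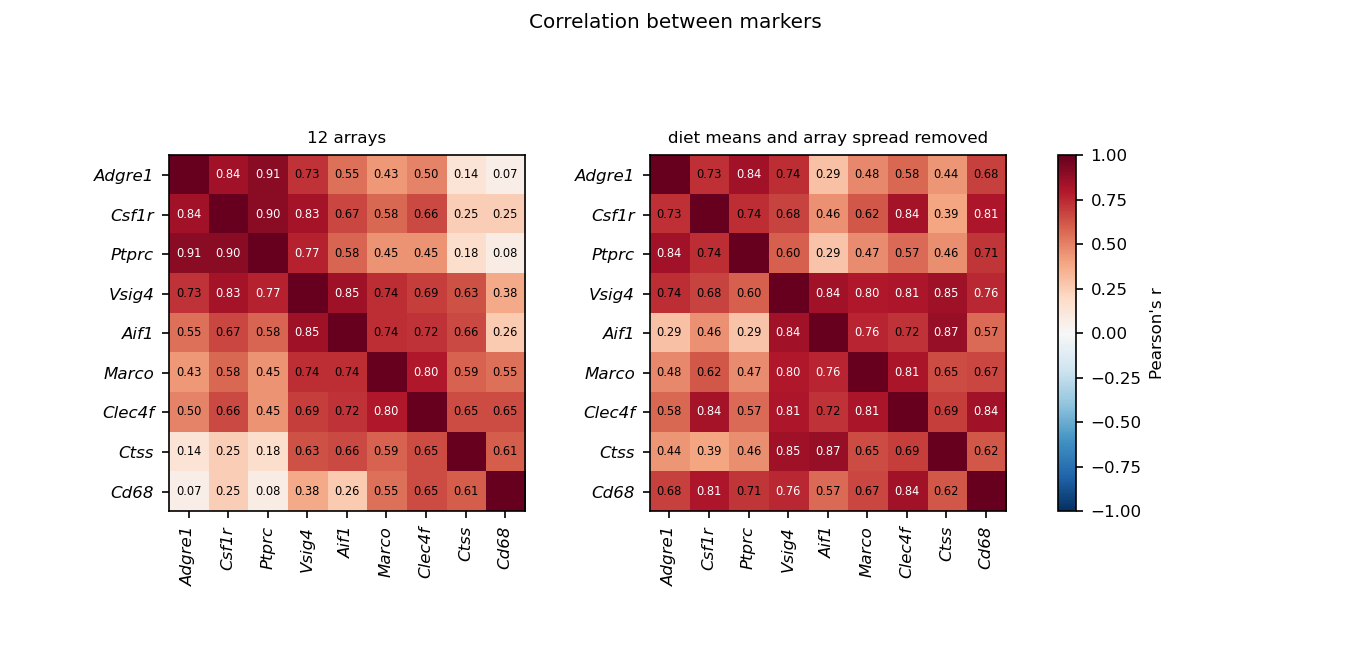
Pearson's r between each pair of markers over the 12 arrays (left) and after diet means and the arrays' interquartile range were taken out of each marker (right); colour runs from -1 to 1. On the left Adgre1, Csf1r and Ptprc form 1 block and Cd68 and Ctss have r of 0.07 to 0.25 with them; on the right all pairs lie between 0.29 and 0.87.

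The array spread itself was related to part of the markers. Over 9 markers tested, Pearson's r with the interquartile range was 0.82 for Ptprc, 0.75 for Csf1r and 0.68 for Adgre1 (permutation p = 0.00074, 0.00412 and 0.0154, adjusted p = 0.00666, 0.0185 and 0.0461). Spearman's rho was 0.72, 0.64 and 0.64 for the same genes (permutation p = 0.0103, 0.0304 and 0.0308, adjusted p = 0.0923 for each). Without the 2 arrays farthest from the median spread r was 0.65, 0.50 and 0.31. For Vsig4 r was 0.63 and rho 0.55 (permutation p = 0.0286 and 0.0723, adjusted 0.0643 and 0.163), and r was 0.21 without those 2 arrays. Ctss and Cd68 had r of -0.10 and -0.25 with the spread (rho -0.10 and -0.36, permutation p of r = 0.765 and 0.419, of rho = 0.751 and 0.245). A relation to the spread was common on these arrays: the median size of r, whatever its sign, was 0.56 over all probe sets, and the median r was 0.21 over those above the olfactory receptor range. The part of the spread in the differences between diets was not tested beyond the covariate values given above.

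**Figure D4:**
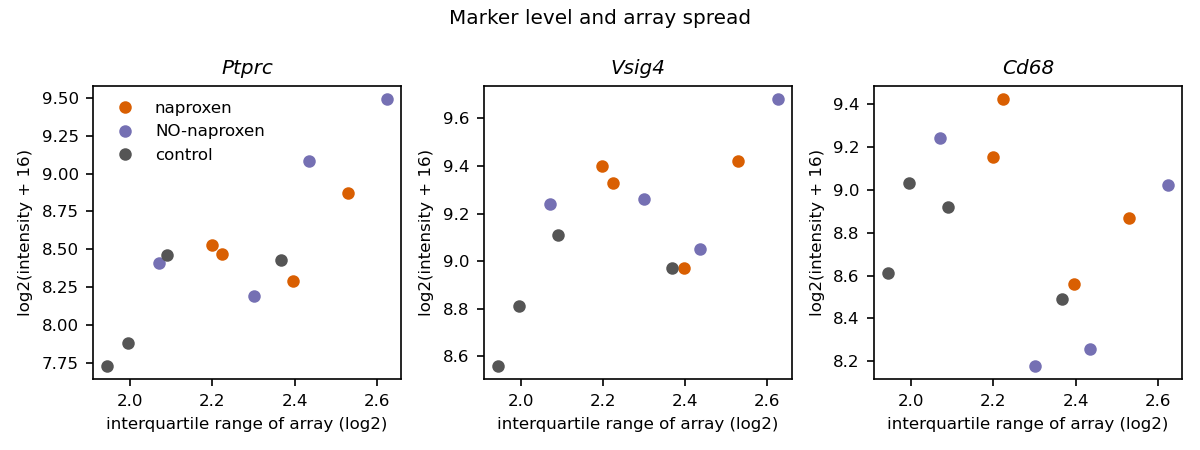
Level of Ptprc, Vsig4 and Cd68, as log2(intensity + 16), against the interquartile range of each array's log2 values; 1 point per array, coloured by diet. Ptprc is lowest in the 2 narrowest arrays, both controls, and highest in the widest; Cd68 shows no such order.

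The likeness among markers was set beside that to all other probe sets, as a description with no test. It stood out more for Vsig4, Clec4f, Aif1, Ctss and Marco than for Ptprc, Adgre1, Cd68 and Csf1r. The median r of a marker with the other 8 was 0.73 for Vsig4, 0.66 for Clec4f and 0.66 for Aif1. Of the probe sets above the olfactory receptor range, 6.84% had at least that r with Vsig4, 2.7% with Clec4f and 3.14% with Aif1. For Ptprc the median r with the other markers was 0.52, and 40.4% of probe sets were at least as close to Ptprc. For Adgre1 the share was 40.8%, for Cd68 26.7%, for Csf1r 21.1%, for Marco 5.63% and for Ctss 4.85%. With diet means and spread taken out the shares were 27.0% for Ptprc, 28.2% for Adgre1, 10.2% for Cd68 and 6.86% for Csf1r. For the remaining markers they then ran from 2.2% (Clec4f) to 5.92% (Ctss). The 5 genes closest to Vsig4 among 9829 compared over the 12 arrays were Sp140 (r = 0.97), the mitochondrial ribosomal protein gene Mrpl17 (0.95), Zfand6 (0.95), the fatty acid oxidation gene Decr1 (0.94) and the propionyl-CoA carboxylase subunit Pcca (0.94). Those closest to Ptprc were the mitochondrial membrane protein gene Slc25a46 (0.98), Rabl6 (0.98), the chromatin remodelling subunit Smarcc1 (0.97), Tent4b (0.97) and Tbpl1 (0.97). Among 9837 named genes above the range, Adgre1 was rank 325 and Csf1r rank 352 in closeness to Ptprc, and Vsig4 was rank 2014.

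The promoters of Ptprc, Adgre1 and Csf1r, which had r of 0.84 to 0.91 with one another, and of Cd68, with r of 0.07 to 0.25 to them, are shown so that they can be compared by sequence. The low r of Cd68 held before, but not after, diet means and spread were taken out (0.68 to 0.81). The windows are from RefSeq (build GRCr8), 250 bases before to 50 after the gene's start, 5′ to 3′ on the gene's strand. Capitals mark GAGGAA or its reverse complement TTCCTC, the core that the myeloid transcription factor Spi1 recognises.
Ptprc (chr13:52259697-52259996, - strand): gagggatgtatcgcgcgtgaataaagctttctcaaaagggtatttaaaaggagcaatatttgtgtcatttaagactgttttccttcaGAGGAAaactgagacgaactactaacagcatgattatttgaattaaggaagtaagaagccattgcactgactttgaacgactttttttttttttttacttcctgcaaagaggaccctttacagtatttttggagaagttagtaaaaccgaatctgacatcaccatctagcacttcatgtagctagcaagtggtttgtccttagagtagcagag
Adgre1 (chr9:2329190-2329489, + strand): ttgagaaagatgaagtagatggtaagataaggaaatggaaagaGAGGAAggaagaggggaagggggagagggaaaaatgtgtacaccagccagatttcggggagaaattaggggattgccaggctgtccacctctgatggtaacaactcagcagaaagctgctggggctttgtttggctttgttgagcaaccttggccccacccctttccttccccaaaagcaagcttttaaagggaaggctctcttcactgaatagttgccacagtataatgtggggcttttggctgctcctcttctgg
Csf1r (chr18:56834129-56834428, + strand): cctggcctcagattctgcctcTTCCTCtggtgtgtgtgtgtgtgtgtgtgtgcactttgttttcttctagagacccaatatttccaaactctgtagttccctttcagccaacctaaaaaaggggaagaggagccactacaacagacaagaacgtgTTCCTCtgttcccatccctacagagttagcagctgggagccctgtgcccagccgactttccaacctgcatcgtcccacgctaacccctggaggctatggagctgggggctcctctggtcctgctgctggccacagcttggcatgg
Cd68 (chr10:54882392-54882691, - strand): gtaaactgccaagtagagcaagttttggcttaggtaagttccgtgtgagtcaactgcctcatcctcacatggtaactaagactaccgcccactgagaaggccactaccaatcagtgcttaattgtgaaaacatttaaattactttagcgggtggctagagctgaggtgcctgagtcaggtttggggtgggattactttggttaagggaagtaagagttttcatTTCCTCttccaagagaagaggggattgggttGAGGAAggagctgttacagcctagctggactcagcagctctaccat

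The letters GAGGAA occurred on either strand in 6 of the 9 marker windows in the RefSeq table, with Marco and Ctss besides the 4 shown, and in 27.6% of all 33469 windows of 300 bases. No other motif was searched, so none overlapped. Csf1r held 2 matches on the opposite strand, and Cd68 held 1 on each strand, so the match did not separate Cd68 from the other 3. The windows of Vsig4, Clec4f and Cd163 held none, and a window of Aif1 was not used here. A match of letters is a description and not a binding site.

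Other genes of Kupffer cells were read from a list of 16, all measured. With naproxen 13 of 16 log2 fold changes were above 0 with a median of 0.19, and with NO-naproxen 14 of 16 with a median of 0.25. Of the probe sets above the olfactory receptor range, 56.7% and 61.3% were above 0. At an unadjusted p under 0.05 none of the 16 passed in either direction, beside 12.7% of all probe sets with naproxen and 10.4% with NO-naproxen. Mertk, a receptor for the uptake of dying cells, measured 0.40 ± 0.23 (SE) with naproxen and 0.45 ± 0.23 with NO-naproxen. Its relative Axl measured 0.18 ± 0.20 and 0.39 ± 0.20, and the transcriptional regulator Id3 0.44 ± 0.22 and 0.32 ± 0.22. Of the growth factor axis and macrophage regulators 11 of 14 were measured, and 0 passed at an unadjusted p under 0.05, beside the same shares. The ligand of Csf1r, Csf1, measured 0.30 ± 0.17 with naproxen and 0.21 ± 0.17 with NO-naproxen, and the transcription factor Maf 0.21 ± 0.16 and 0.24 ± 0.16. The lipid-sensing receptor Trem2 lay the other way, at -0.45 ± 0.26 and -0.48 ± 0.26. Trem2 gave 74.1 in control replicate 2, the control array of widest spread, and 120, 162 and 203 in the other controls. The part of the array spread in this was not tested.

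Genes of phagocytosis and the lysosome, 13 of 14 measured, had a median of 0.09 with naproxen and 0.12 with NO-naproxen. At an unadjusted p under 0.05, 1 of the 13 was higher with NO-naproxen and 0 with naproxen, beside 5.49% and 3.16% of all probe sets. The 1 gene was the protease Lgmn, at 0.45 ± 0.21 with NO-naproxen (adjusted p = 0.468). The Fc receptor Fcgr2b, which sinusoidal endothelium also carries, measured 0.16 ± 0.19 with naproxen and 0.32 ± 0.19 with NO-naproxen. The scavenger receptor Msr1 measured 0.26 ± 0.23 and 0.35 ± 0.23. The median of this list, which mixes uptake receptors with lysosomal genes, lay closer to that of all probe sets than the markers' median did. That difference was not tested. The receptors Fcgr2b and Msr1, named for their small p, lay above the list median with both drugs.

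Genes of macrophage activation showed no common direction. Of 18 listed 17 were measured, and 7 of 17 were above 0 with each drug, with medians of -0.08 with naproxen and -0.07 with NO-naproxen. At an unadjusted p under 0.05, 4 were higher and 2 lower with naproxen and 3 higher and 1 lower with NO-naproxen, none past the adjusted threshold. Over all probe sets the shares were 3.16% higher and 9.5% lower with naproxen and 5.49% and 4.86% with NO-naproxen. Il1rn, the interleukin 1 receptor antagonist, gave 393, 300, 499 and 320 with naproxen, 435, 548, 267 and 352 with NO-naproxen, and 395, 185, 181 and 122 in controls. Control replicates 2, 3 and 4 lay below every drug array, and control replicate 1 lay among them. The log2 fold changes were 0.83 ± 0.29 with naproxen and 0.89 ± 0.29 with NO-naproxen (adjusted p = 0.381 and 0.468). The neutrophil-attracting chemokine Cxcl1 gave 122, 94.5, 130 and 73.5 with naproxen, 93.0, 142, 92.4 and 81.0 with NO-naproxen, and 71.5, 39.1, 73.3 and 58.4 in controls. Every drug array of Cxcl1 lay above every control array, by a narrow margin with naproxen (73.5 against 73.3). In this direction 2.09% of probe sets were separated with naproxen and 2% with NO-naproxen. The log2 fold changes of Cxcl1 were 0.66 ± 0.22 and 0.62 ± 0.22 (limma adjusted p = 0.381 and 0.468). Its control mean of 6.23 lay within the olfactory receptor range, so it was above that range only through the drug arrays. The related Cxcl2, within the olfactory receptor range, lay the other way, at -0.61 ± 0.24 and -0.74 ± 0.24. Cxcl2 gave 49.3 in control replicate 2, the control array of widest spread, and 86.5, 110 and 98.5 in the other controls. The part of the array spread in this was not tested.

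**Figure D5:**
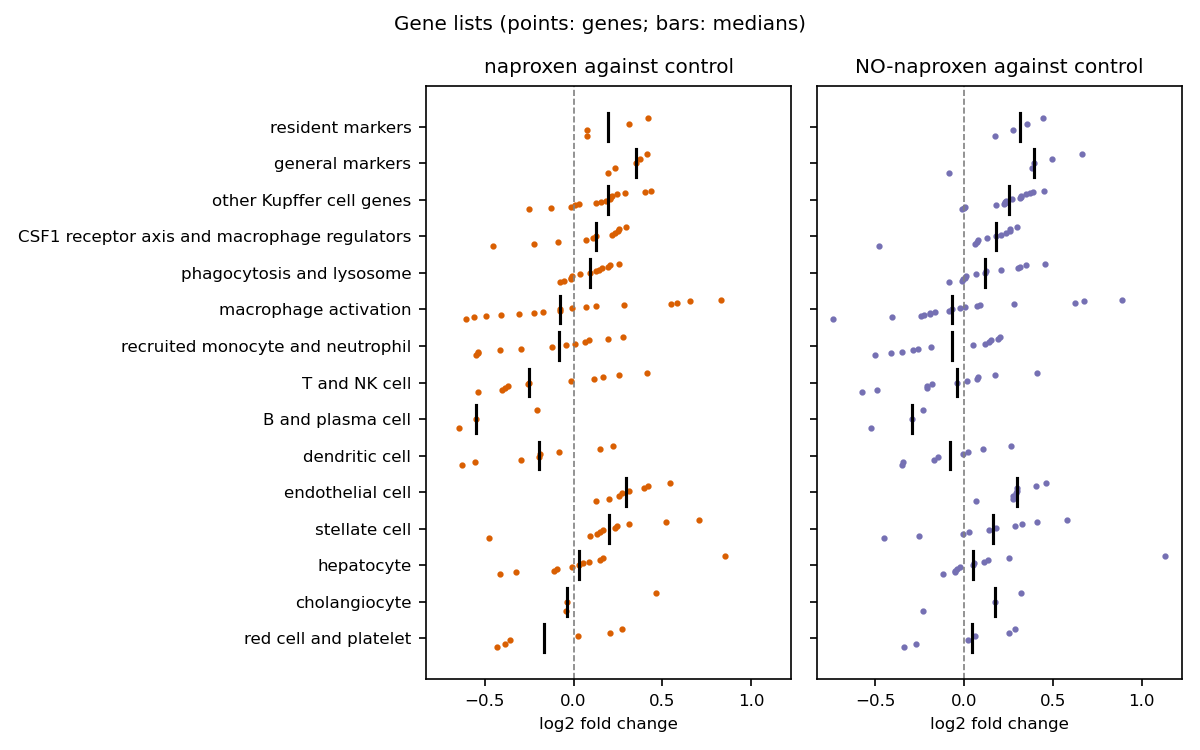
Log2 fold change of each measured gene (points) and the list median (bars) for the marker groups and 13 other lists, naproxen (left) and NO-naproxen (right) against control. The resident and general markers, other Kupffer cell genes, the growth factor receptor axis, phagocytosis, endothelial, stellate and hepatocyte genes have medians above 0 in both panels, while activation genes spread to both sides.

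Markers of other cell types were measured beside them. Of the probe sets above the olfactory receptor range, 56.7% were above 0 with naproxen and 61.3% with NO-naproxen. Endothelial genes, the lining cells of the sinusoids, had 8 of 8 measured members above 0 with each drug and medians of 0.29 with each, of the size seen for the resident markers (0.19 and 0.32). At an unadjusted p under 0.05, 3 of the 8 were higher with naproxen and 1 of the 8 with NO-naproxen, beside 3.16% and 5.49% of all probe sets. Pecam1, Cdh5 and Stab2 were among the 7 of 15 listed that had no probe set of their own. The summed intensity of the 8 measured endothelial genes was 2600 to 3152 with naproxen, 2402 to 3307 with NO-naproxen and 1809 to 2598 in controls. Oit3 measured 0.42 ± 0.15 with naproxen and 0.29 ± 0.15 with NO-naproxen, Clec4g 0.54 ± 0.22 and 0.06 ± 0.22, and Flt4 0.40 ± 0.17 and 0.30 ± 0.17. Of the stellate cell genes 9 of 10 were above 0 with naproxen and 7 of 10 with NO-naproxen. At an unadjusted p under 0.05, 2 were higher and 1 lower with naproxen and 1 higher with NO-naproxen. Over all probe sets the shares were 3.16% higher and 9.5% lower with naproxen and 5.49% and 4.86% with NO-naproxen. The summed intensity of the stellate cell genes was 3619 to 4595 with naproxen, 3615 to 4830 with NO-naproxen and 2994 to 4371 in controls. The pericyte gene Rgs5 measured 0.71 ± 0.20 with naproxen and 0.58 ± 0.20 with NO-naproxen, and Dcn 0.52 ± 0.24 and 0.18 ± 0.24. Thy1, within the olfactory receptor range, lay the other way, at -0.48 ± 0.22 and -0.45 ± 0.22. Thy1 gave 44.9 in control replicate 2, the control array of widest spread, and 83.1, 100 and 80.3 in the other controls. Hepatocyte genes had medians of 0.03 and 0.05 over 11 measured, of which 6 were above 0 with each drug. At an unadjusted p under 0.05, 1 was higher and 1 lower with naproxen and 1 higher with NO-naproxen, beside the same shares of all probe sets. The drug-metabolising Cyp3a2 measured 0.85 ± 0.32 with naproxen and 1.13 ± 0.32 with NO-naproxen. It met the study's criterion with both drugs. In this direction 0.875% of probe sets met it with naproxen and 1.78% with NO-naproxen. The tyrosine aminotransferase gene Tat measured -0.42 ± 0.19 and -0.04 ± 0.19. The transcription factor Hnf4a measured -0.33 ± 0.17 and -0.05 ± 0.17 (limma adjusted p = 0.415 with naproxen). Every naproxen array of Hnf4a lay below every control array, as in 2.4% of probe sets. The summed intensity of the hepatocyte genes was 73307 to 81281 with naproxen, 73057 to 89398 with NO-naproxen and 74000 to 87190 in controls. The summed intensity of the 9 markers was 4191 to 6059 with naproxen, 4590 to 7167 with NO-naproxen and 3708 to 5499 in controls. Genes of other leukocytes, which also carry Ptprc, had summed intensities that overlapped between diets. For monocytes and neutrophils the sum was 574 to 849 with naproxen, 693 to 956 with NO-naproxen and 635 to 1016 in controls. For T and NK cells it was 1181 to 1439, 1211 to 1647 and 1062 to 1669 in the same groups. The part of other cell types in the marker values was not tested.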

How the data were processed

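Liver RNA was labelled with biotin after ribosomal RNA removal and hybridised to Affymetrix whole-transcript arrays, per the labels' protocols. Each array has 19418 values, deposited by the authors as linear intensity per probe set. The submitters' processing notes name Affymetrix Expression Console 1.1.1, and rn4 as the build. No source used here states the summary method or the normalization. Here 16 was added before log2, and nothing else was normalized. Symbols came from the platform annotation (13327 probe sets with 1 symbol, 620 with several, 5471 with none), of which 13232 matched the RefSeq table by Entrez identifier. Background was judged from 971 olfactory and vomeronasal receptor probe sets.

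All 12 arrays entered 1 fit in limma 3.58.1 (lmFit and eBayes, R 4.3.3, 2-sided) with diet as the only term. P-values were adjusted by Benjamini-Hochberg over all probe sets. Groups and replicate numbers came from the sample titles. Correlations used 100000 permutations. The limma fit was first tested on simulated data. Precision is limited by the number of arrays. The markers and the gene lists were chosen with earlier results of these data known. Named were the 10 markers, up to 3 genes of each other list with the smallest p of a drug against control, and the 5 genes closest to Vsig4 and to Ptprc. Alternatives are given in the closing section. Python 3.11.15 with matplotlib 3.10.9 drew the figures.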

Additional observations from a re-analysis of the deposited data

Results flagged for a closer look

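Ctss in the NO-naproxen group had 1 array far below the other 3: replicate 1 gave an intensity of 405, where the others gave 651, 679 and 664. The gap to the nearest array took up 0.899 of the group's range, above Dixon's critical value for 4 samples. Of 30 groups of 4 arrays examined (9 markers and the array spread, in 3 diets) 1 stood out, and chance gives about 1 in 20.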

How the results depend on the processing

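No marker passed the adjusted threshold in any of the 24 alternatives for any comparison. By the study's criterion, the naproxen count of 0 markers was 1 with the array spread as a covariate (Ctss). With each array left out it was 0 to 1, 1 being Marco without naproxen replicate 3. At an unadjusted limma p under 0.05 alone, 5.63% and 8.24% of all probe sets passed in these 2 settings, against 12.7% in the main fit. The NO-naproxen count of 1 was 0 after quantile normalization and 0 without the 2 arrays of narrowest spread. With the spread as a covariate it was 1, but for Ctss. The NO-naproxen count ran from 0 to 2 with each array left out. It was 0 without NO-naproxen replicate 1 or 2 or control replicate 3 or 4. At that p alone 5.07%, 3.73%, 5.28% and 4.15% of all probe sets then passed. The count was 2 without NO-naproxen replicate 4 or control replicate 1 or 2, where 10.5%, 8.94% and 23.3% passed. The count thus moved along with the share of all probe sets in most of these settings. Between the drugs the count of 0 was 1 with array weights (Cd68), where 5.92% of all probe sets passed at that p alone, against 1.92%. The median over the markers ran from 0.09 to 0.43 with naproxen and from 0.16 to 0.53 with NO-naproxen. Without the 2 narrowest arrays, naproxen values turned to -0.045 for Clec4f, -0.043 for Marco, -0.12 for Adgre1 and -0.050 for Aif1, and NO-naproxen to -0.077 for Marco. With the spread as a covariate Adgre1 was -0.15 with naproxen and Cd68 0.12 with NO-naproxen. After quantile normalization Clec4f was -0.013 with naproxen. Between the drugs, Vsig4 and Ctss turned to -0.060 and -0.067 after quantile normalization, to -0.020 and -0.033 after median centring and to -0.081 and -0.25 with array weights, as did Clec4f (-0.048). With each array left out, Adgre1 ran from -0.039 to 0.17 with naproxen and Cd68 from -0.27 to 0.078 with NO-naproxen. Between the drugs Marco then ran from -0.31 to 0.14, Vsig4 from -0.10 to 0.11, Ctss from -0.12 to 0.19, Csf1r from -0.045 to 0.29 and Clec4f from -0.0054 to 0.21. The cause was not tested. Median centring moved the median of all probe sets with naproxen to 0.08, against -0.03 without it.

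The 11 correlated pairs were 2 after quantile normalization and 4 to 12 with each array left out. They were 4 without NO-naproxen replicate 2 or control replicate 4, and 7 without naproxen replicate 1 or 3 or NO-naproxen replicate 3. Chosen after seeing the data, taking out diet means left 7 pairs, and taking out diet means and spread 15. Such residuals have fewer free values than arrays, which makes these permutation p-values too small. With the replicate number as a block, Ptprc in NO-naproxen against control kept its log2 fold change of 0.67 (unadjusted p = 0.00598, adjusted p = 0.432), and the block changed no call. Same-numbered arrays of different diets had correlations of their deviations between -0.38 and 0.48, over 0.1 in 4 of 12 pairs, and 3 of 12 arrays were closest to their own number.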

Other observations

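Markers of blood leukocytes were set beside the macrophage markers, with no test of the difference between lists. Of 12 measured genes of recruited monocytes and neutrophils, 8 lay in the olfactory receptor range and the median log2 fold change was -0.08 with naproxen and -0.07 with NO-naproxen, where all probe sets had -0.03 and 0.00. Of the 12, 5 were above 0 with naproxen and 6 with NO-naproxen, near the shares of all probe sets (45.9% and 50.1%). The neutrophil collagenase Mmp8 gave intensities of 133, 138, 107 and 122 with naproxen, 117, 101, 151 and 151 with NO-naproxen, and 184, 140, 216 and 224 in controls. Every naproxen array lay below every control array, as in 2.4% of probe sets. The log2 fold change in limma was -0.54 ± 0.18 (SE) with naproxen and -0.50 ± 0.18 with NO-naproxen (adjusted p = 0.381 and 0.468). The lowest control for Mmp8 was replicate 2 (140), the control array of widest spread (interquartile range 2.37). The receptor gene Fpr1, in the olfactory receptor range, measured -0.54 ± 0.23 with naproxen and 0.12 ± 0.23 with NO-naproxen. Fpr1 also had its lowest control value in replicate 2 (8.03, where the others gave 26.5, 30.9 and 43.6). The part of the array spread in these values was not tested.

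T and NK cell genes, 11 of 16 measured, had medians of -0.25 with naproxen and -0.04 with NO-naproxen. Members lay on both sides, with 4 of 11 above 0 with naproxen and 5 of 11 with NO-naproxen. Of all probe sets 45.9% and 50.1% were above 0. The 2 of smallest p were both below 0. The T cell adaptor Lat measured -0.54 ± 0.24 and -0.49 ± 0.24, and the cytotoxic protease Gzmb -0.41 ± 0.26 and -0.58 ± 0.26. Lat gave 133 in control replicate 2, the widest control array, and 205, 225 and 232 in the other controls. In NO-naproxen replicate 3, the narrowest drug array (2.07), Lat gave 230. Of the B and plasma cell genes 3 of 9 were measured, 2 of them in the olfactory receptor range, and all 3 had values below 0 with both drugs. The dendritic cell list, 8 of 9 measured, had medians of -0.19 with naproxen and -0.08 with NO-naproxen. In it 2 of 8 were above 0 with naproxen and 3 of 8 with NO-naproxen, beside the same shares. Ciita, the activator of antigen presentation genes, measured -0.56 ± 0.19 with naproxen and -0.15 ± 0.19 with NO-naproxen. None of these genes passed the adjusted threshold in limma. Ptprc, which all these leukocytes carry, lay above 0 with both drugs. The relation of these lists to Ptprc and to the array spread was not tested.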
